A study of Homo sapiens with 6 samples.

Results

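A group of 10 genes that the tumour suppressor p53 is known to switch on was followed across 3 lung cancer cell lines: AEN, TP53INP1, XPC, MDM2, ZMAT3, TIGAR, RRM2B, GDF15, DDB2 and POLH. They were taken by symbol from the platform annotation, each was represented by 1 probe set, and all 10 of the 10 listed symbols were found among 17687 named genes. p53 is a transcription factor that cells stabilise after DNA damage and other stress. It binds a response element built from a pair of similar repeats and activates genes that stop the cell cycle, repair DNA, adjust metabolism or start apoptosis, and its target MDM2 marks p53 for degradation, which closes a feedback loop. Many of these targets are also known to answer to other transcription factors.

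The data came from 6 Clarion S microarrays, with 1 array for each line and condition. PC-9 and HCC827 are labelled EGFR mutant, that is, they carry a mutated epidermal growth factor receptor. Each of these lines gave 1 array after 6 hours with 0.01 µM erlotinib, an inhibitor of the receptor's kinase, and 1 control array. H322 is labelled wild-type and gave 1 array after 6 hours with EGF, a ligand of the receptor, with 100 µg/ml given in the labels, and 1 control array. The labels describe culture medium with tumour necrosis factor alpha for all 3 lines, and whether the control cultures received it is not stated. Each line is 1 cell line in 1 culture per condition as far as the labels say. The p-values thus rest on how far the erlotinib differences of PC-9 and HCC827 disagree, and on spread borrowed from other genes. They do not measure variation between cultures of a line. Differences between the lines and technical spread cannot be told apart in that disagreement.

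Levels are given as log2(intensity + 1). The 95th percentile of 612 negative control probe sets lay between 6.92 and 7.47 on this scale on the 6 arrays, and a signal at or below that of its own array is called not above the negative controls. All 10 genes were above the negative controls on at least 5 arrays, and 7 of them on all 6. The number of arrays limits the precision: erlotinib has 2 lines as replicates and EGF has none. All 8 epithelial markers listed, such as EPCAM and KRT8, were above the negative controls on every array. None of 4 measured leukocyte markers was above them on any array, and neither were COL1A1, PDGFRB, DCN and PECAM1 of 7 measured markers of fibroblasts and endothelium. The other 3 of the 7, COL1A2, CDH5 and VWF, were above them on some arrays, with at most 2 of them above on any array. Of the lung lineage markers, NKX2-1 and NAPSA were above the negative controls in HCC827, while SFTPB and SFTPC were not above them on any array.

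The stretches below show the letters upstream of AEN, the gene with the largest fitted change, and of the inner start site of MDM2, whose fitted change was 0.16 on the log2 scale. Both are the 250 bases before an annotated start, from RefSeq on GRCh38.p14, plus strand. Capitals mark the stretch that matches the p53 response element consensus (20 letters, a pair of 10-letter repeats with no spacer) with 2 mismatches, a limit chosen with the MDM2 element in mind.
AEN, chr15:88621090-88621339: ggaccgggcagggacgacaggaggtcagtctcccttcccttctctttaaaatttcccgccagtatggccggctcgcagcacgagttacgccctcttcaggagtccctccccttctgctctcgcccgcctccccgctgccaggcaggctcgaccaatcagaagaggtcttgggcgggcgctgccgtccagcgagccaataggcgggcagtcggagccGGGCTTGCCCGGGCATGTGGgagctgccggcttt
MDM2, inner start, chr12:68808767-68809016: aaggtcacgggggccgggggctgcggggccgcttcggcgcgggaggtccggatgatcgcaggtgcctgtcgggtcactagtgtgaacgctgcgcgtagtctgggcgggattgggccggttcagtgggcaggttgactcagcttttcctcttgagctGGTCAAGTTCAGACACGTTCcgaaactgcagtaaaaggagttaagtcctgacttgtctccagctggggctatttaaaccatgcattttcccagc

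The matching stretch began 34 bases before the AEN start and 94 bases before this MDM2 start. The consensus reads the same on both strands, and 0.561% of 35116 such windows held a match. A gene can have several windows, and 0.71% of 27305 genes had a match in at least 1 of theirs. Of the 8 genes of the group with a window in the table, AEN and MDM2 had a match, and XPC, DDB2, POLH, TIGAR, ZMAT3 and GDF15 had none in these windows. TP53INP1 and RRM2B were not analysed here for sequence. The letters TGANTCA, the AP-1 site, were searched on both strands and stood in the MDM2 inner window, 118 bases before the start and clear of the p53 match. They occurred in 6.57% of all windows, or for 8.06% of genes, and for no other gene of the group. CACGTG, the E-box, and CCGGAAG, an ETS site, were found in 6.34% and 8.52% of all windows, or for 7.73% and 10.2% of genes, and for none of the group. A match is a description of the letters and not of binding.

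The first comparison concerns inhibition of EGFR in the lines with a mutated receptor. With erlotinib, AEN fell 4.95-fold and TP53INP1 rose 3.63-fold, while the other 8 genes did not pass the test across all genes. The genes of DNA repair and nucleotide supply (XPC, DDB2, POLH and RRM2B) had positive differences in both lines, between 0.29 and 1.15 on the log2 scale, and TIGAR had negative ones. The test was limma with the cell line as a block, adjusted by Benjamini-Hochberg over all genes at 0.05. It called 1.48% of all genes, 0.565% as higher and 0.916% as lower, against 2 of the 10 p53 targets, 1 in each direction. Of the 10, 5 had an unadjusted p under 0.05 in limma, beside 14.4% of all genes. The 10 genes were chosen with earlier results of these data known, so this is not an independent comparison. The median fitted change of the 10 was 0.23 on the log2 scale and that of all genes was 0.00.

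AEN encodes a nuclease that promotes apoptosis. Its level was 7.67 with erlotinib against 10.14 in control PC-9 cells. In HCC827 it was 9.91 with erlotinib against 12.05 in control cells. Both erlotinib arrays were below the control of their own line, although the HCC827 erlotinib array lay close to the PC-9 control. The PC-9 erlotinib signal was 0.32 above the negative control limit of its array. In log2 units AEN fell by 2.31 ± 0.20 (moderated SE from limma, n = 2 lines), and its adjusted p in limma was 0.00852. It ranked 10th of all genes by p. The decrease was 4.95-fold, with a 95% interval of 3.56-fold to 6.87-fold. Taken singly, PC-9 gave a decrease of 5.54-fold and HCC827 one of 4.42-fold. Among genes whose higher signal reached the median of all probe sets, 0.274% had a larger decrease in PC-9 and 0.405% in HCC827.

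TP53INP1 encodes a nuclear protein that takes part in p53-dependent apoptosis and in autophagy. Its level was 10.80 with erlotinib against 9.66 in control PC-9 cells. In HCC827 it was 9.82 with erlotinib against 7.24 in control cells. Both erlotinib arrays were higher than the control of their line, and the signal of the HCC827 control did not exceed its negative controls. TP53INP1 rose by 1.86 ± 0.33, or 3.63-fold (95% interval 2.11-fold to 6.22-fold, limma adjusted p = 0.0477, n = 2 lines). The increase was 2.20-fold in PC-9, and in HCC827 it was at least 5.83-fold. With an offset of 16 in place of 1 the limma adjusted p was 0.0588, and over the 9 alternative fits it was below the threshold in 4, with values up to 1.0. AEN was called in 7 of these 9 fits, the exceptions being a prior variance held constant over levels (limma adjusted p = 0.0971) and no block for the line (limma adjusted p = 1.0).

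**Figure D1:**
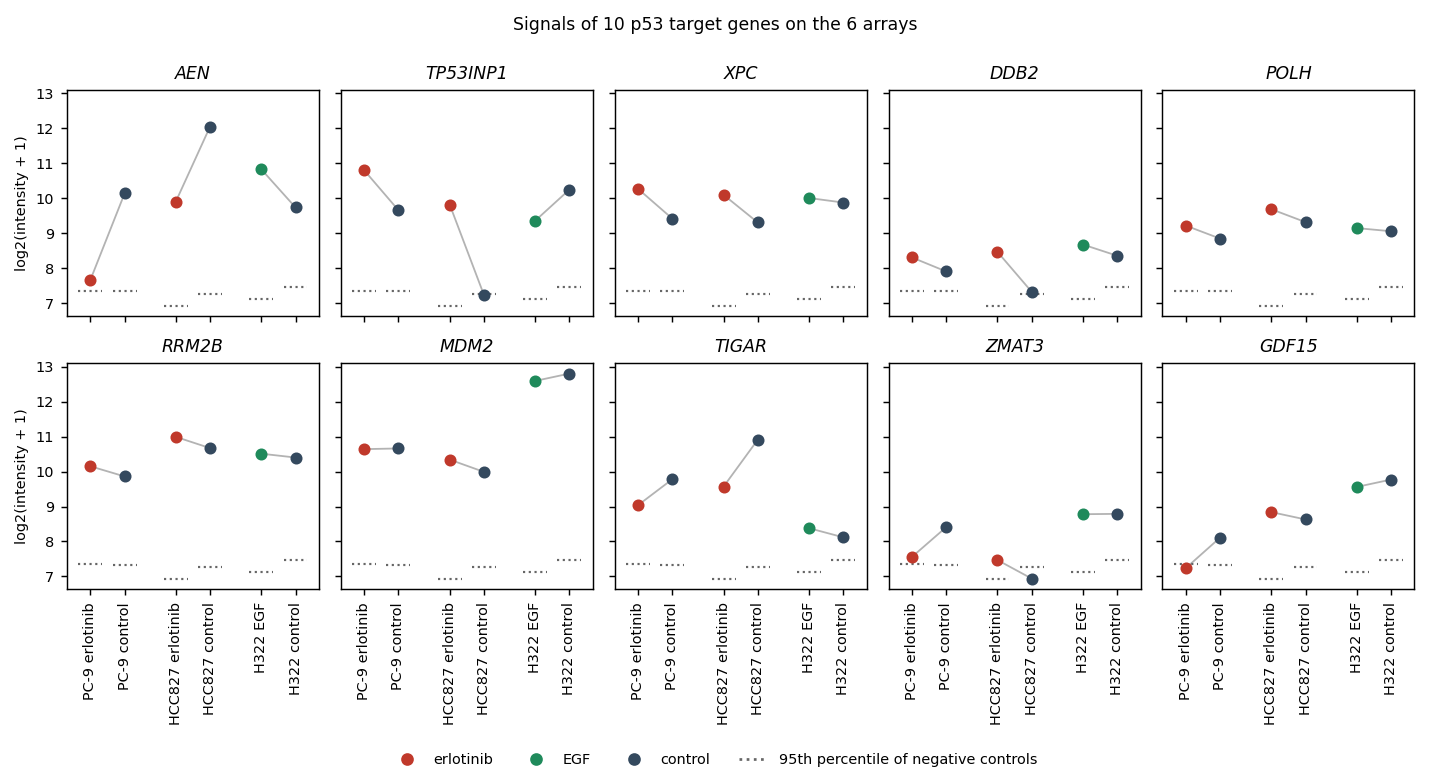
Signals of the 10 p53 target genes as log2(intensity + 1), 1 point per array, with lines joining the treated and control array of a cell line and dotted marks at the 95th percentile of the negative controls of each array. AEN is lower with erlotinib than in its control in PC-9 (7.67 against 10.14) and HCC827 (9.91 against 12.05) and higher with EGF in H322 (10.83 against 9.74), and TP53INP1 runs the other way in each line.

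XPC and DDB2 recognise damaged DNA at the start of nucleotide excision repair. XPC had a level of 10.27 with erlotinib against 9.42 in control PC-9 cells, and of 10.10 with erlotinib against 9.31 in control HCC827 cells. Each erlotinib array was above the control of its own line, and the lines differed little, with a 1.80-fold difference in PC-9 beside 1.73-fold in HCC827. The fitted difference was 0.82 ± 0.20 and did not pass (limma adjusted p = 0.106, n = 2 lines, 95% interval 0.36 to 1.28). It was called in 1 of the 9 alternative fits, with dim signals of all genes raised to the negative controls (limma adjusted p = 0.00995).

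DDB2 was at 8.31 with erlotinib against 7.91 in control PC-9 cells, and at 8.47 with erlotinib against 7.33 in control HCC827 cells. Each erlotinib array was above the control of its own line, but the HCC827 control lay just over its negative control limit of 7.27. PC-9 showed a 1.32-fold difference, HCC827 a 2.21-fold one, and the fitted value of 0.77 ± 0.28 did not pass (limma adjusted p = 0.267, n = 2 lines, 95% interval 0.12 to 1.42).

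POLH, a DNA polymerase that copies past ultraviolet damage, was at 9.22 with erlotinib against 8.85 in control PC-9 cells, and at 9.69 with erlotinib against 9.32 in control HCC827 cells. RRM2B, a subunit of ribonucleotide reductase that supplies nucleotides for repair, was at 10.15 with erlotinib against 9.86 in control PC-9 cells, and at 10.99 with erlotinib against 10.67 in control HCC827 cells. For each gene the pair differences of the lines were nearly equal: 1.29-fold (PC-9) and 1.30-fold (HCC827) for POLH, and 1.22-fold and 1.25-fold for RRM2B. Their fitted values were 0.37 ± 0.21 and 0.30 ± 0.18, and neither passed (limma adjusted p = 0.497 and 0.525, n = 2 lines). The 95% intervals reached from -0.12 to 0.86 for POLH and from -0.12 to 0.73 for RRM2B, so increases up to 1.82-fold and 1.66-fold lie within them. Together with TP53INP1, the 4 repair and nucleotide genes made 5 of 10 that were higher with erlotinib in both lines, where 30.0% of all genes were.

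TIGAR, a phosphatase that slows glycolysis and favours the pentose phosphate pathway, was the other gene besides AEN with a lower signal in both lines, where 29.6% of all genes were. Its level was 9.04 with erlotinib against 9.78 in control PC-9 cells, and 9.57 with erlotinib against 10.91 in control HCC827 cells. Each erlotinib array lay below the control of its own line. The PC-9 pair gave 1.67-fold less TIGAR signal and the HCC827 pair 2.52-fold less, and its fitted value of -1.04 ± 0.23 did not pass (limma adjusted p = 0.0769, n = 2 lines, 95% interval -1.56 to -0.51). It was called in 3 of the 9 alternative fits, with limma adjusted p of 0.0403 (median centring), 0.0153 (quantile normalization) and 0.000318 (dim signals raised).

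MDM2, ZMAT3 and GDF15 had differences of opposite sign in the lines, as 40.4% of all genes did. For MDM2 this depends on the scaling, as its PC-9 difference of -0.02 became 0.01 after median centring. MDM2, the ubiquitin ligase that holds p53 down, was at 10.64 with erlotinib against 10.66 in control PC-9 cells, and at 10.34 with erlotinib against 9.99 in control HCC827 cells. The erlotinib and control arrays overlapped across the lines. The fitted difference was 0.16 ± 0.20 (limma adjusted p = 0.797, n = 2 lines), and its 95% interval from -0.29 to 0.62 leaves room for a decrease of up to 1.23-fold and an increase of up to 1.53-fold.

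ZMAT3, an RNA-binding zinc finger protein, was at 7.56 with erlotinib against 8.41 in control PC-9 cells, and at 7.47 with erlotinib against 6.94 in control HCC827 cells. The HCC827 control did not exceed the negative controls, so there ZMAT3 was at least 1.14-fold higher, and in PC-9 it was 1.80-fold lower. GDF15, a secreted factor of the TGF-beta superfamily induced by many stresses, was at 7.24 with erlotinib against 8.11 in control PC-9 cells, and at 8.84 with erlotinib against 8.63 in control HCC827 cells. The GDF15 signal of the PC-9 erlotinib array did not exceed the negative controls, so GDF15 was at least 1.68-fold lower there and 1.16-fold higher in HCC827. Fitted values were -0.16 ± 0.36 for ZMAT3 and -0.33 ± 0.31 for GDF15, and neither passed (limma adjusted p = 0.90 and 0.72, n = 2 lines). Genes with a mean level of at least the overall median, these among them, had erlotinib minus control differences with an SD of 0.49 in PC-9 and 0.57 in HCC827. For the 612 negative control probe sets the SD was wider, at 0.95 in PC-9 and 1.06 in HCC827. The bounds for ZMAT3 and GDF15 do not allow for spread of dim signals.

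**Figure D2:**
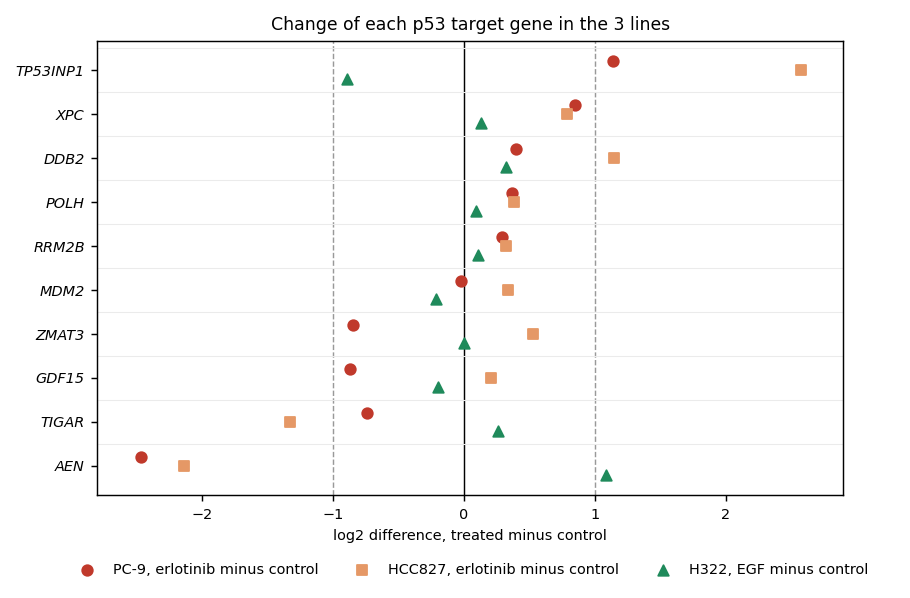
Treated minus control difference (log2) of each of the 10 genes in PC-9, HCC827 and H322, ordered by the fitted erlotinib change, with dashed lines at a 2-fold change. AEN lies at -2.47, -2.14 and 1.09, TP53INP1 at 1.14, 2.58 and -0.89 (the HCC827 value measured against a control signal not above the negative controls), and the points of POLH and RRM2B lie between 0.09 and 0.38.

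Counted by size in single lines, without a test, TP53INP1 was at least 2-fold higher and AEN at least 2-fold lower in PC-9. In all, 0.927% of genes were at least 2-fold higher and 1.78% at least 2-fold lower there, with the higher signal at the overall median of all probe sets or above. In HCC827, TP53INP1 and DDB2 were at least 2-fold higher and AEN and TIGAR at least 2-fold lower, where 2.57% and 1.92% of all genes were. The HCC827 difference exceeded the PC-9 one by at least 1.40 on the log2 scale for TP53INP1, with the HCC827 control signal set to the limit of the negative controls, and by 0.75 for DDB2, and lay 0.33 above it for AEN. In both lines 0.413% of genes were at least 2-fold higher, among them TP53INP1, and 0.684% at least 2-fold lower, among them AEN. With 1 pair per line these differences between lines were not tested.

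**Figure D3:**
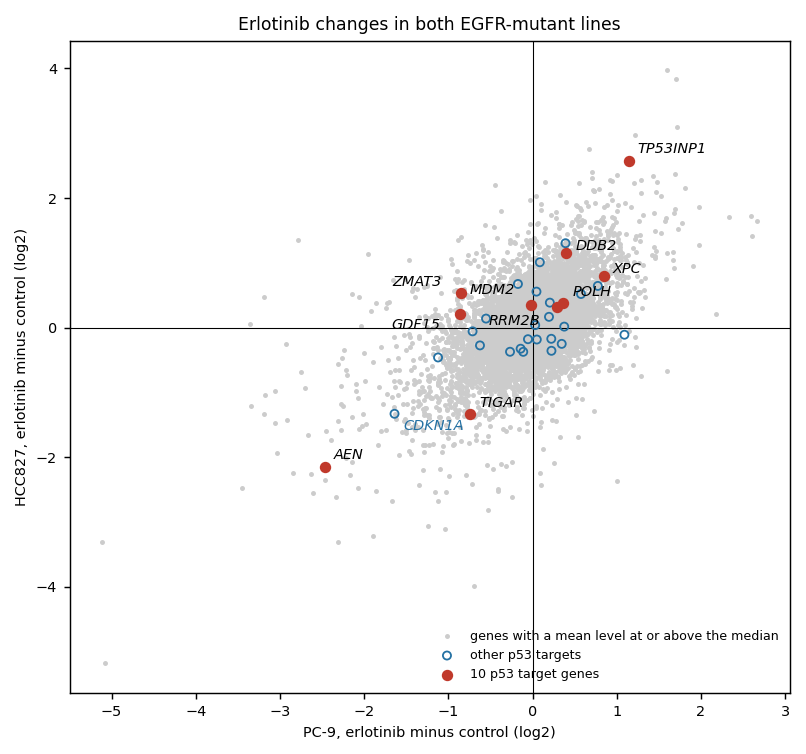
Erlotinib minus control difference (log2) in PC-9 on the x axis and in HCC827 on the y axis, for genes with a mean level of at least the overall median (grey), 24 other p53 targets (open) and the 10 p53 target genes (filled). AEN at -2.47 and -2.14 and TP53INP1 at 1.14 and 2.58, the last from a control signal not above the negative controls, lie at the edge of the cloud, in opposite corners.

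The second comparison concerns activation of the wild-type receptor by its ligand in H322, where no test was possible. AEN was at 10.83 with EGF against 9.74 in control cells, or 2.13-fold higher. TP53INP1 was at 9.36 with EGF against 10.25 in control cells, or 1.85-fold lower. The other 8 genes differed by at most 1.24-fold. At 2-fold 1 of the 10 genes was higher, AEN, where 0.102% of all genes were, and 0 were lower, where 0.0848% were. Larger increases than that of AEN were found for 0.121% of genes whose higher signal reached the median level, and larger decreases than that of TP53INP1 for 0.254%.

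Of the genes with smaller differences, DDB2 was at 8.68 with EGF against 8.36 in control cells, and TIGAR at 8.38 with EGF against 8.12 in control cells. XPC was at 10.01 with EGF against 9.88 in control cells, RRM2B at 10.51 against 10.40, and POLH at 9.15 against 9.06. MDM2 was at 12.59 with EGF against 12.80 in control cells, GDF15 at 9.56 against 9.77, and ZMAT3 at 8.78 against 8.79. Of all 10 genes 6 were above their control with EGF, as were 9034 of the 17687 genes.

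In total 4 genes were at least 2-fold lower with erlotinib in both EGFR-mutant lines and at least 2-fold higher with EGF in H322, which is 0.0226% of all genes. They were AEN, FOSL1, ITGA2 and WDR4. AEN was chosen with earlier results of these data known, and the others were named after their values were seen. FOSL1, a subunit of the AP-1 factor, had differences of -5.08 in PC-9, -5.17 in HCC827 and 2.20 in H322. ITGA2, an integrin subunit, had -1.54, -1.18 and 1.11, and WDR4, a subunit of a tRNA methyltransferase, had -1.26, -1.06 and 1.01. The treatments were given to different lines with different receptors, so treatment and line cannot be told apart in this contrast.

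The genes most like AEN were those with the smallest Euclidean distance over the 3 treated minus control differences, among 8965 genes with a mean level of at least the overall median. They were IL1B and LIF, which encode cytokines, at distances of 0.26 and 0.29, then STC2, a secreted glycoprotein, at 0.68, and TMEM171 and SLC20A1, a phosphate transporter, at 0.78 each. IL1B had -2.64 in PC-9, -2.26 in HCC827 and 0.93 in H322, and LIF had -2.46, -2.35 and 0.89. For TP53INP1 the nearest were YPEL2 at 0.44, ABHD4 at 0.51, PCMTD1 at 0.55, SLC2A12 at 0.57 and IKZF2 at 0.65. YPEL2 had 1.01 in PC-9, 2.36 in HCC827 and -0.53 in H322. Genes near AEN and TP53INP1 were picked by these 3 differences, so their likeness follows from the choice. Each of the 5 near TP53INP1 had its larger erlotinib difference in HCC827, between 2.23 and 2.36. Their differences with EGF lay between -0.58 and -0.34. The HCC827 difference of TP53INP1 itself was measured against a control signal not above the negative controls.

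On the control arrays the lines differed several-fold in some of these genes. MDM2 had a control level of 12.80 in H322 against 10.66 in PC-9 and 9.99 in HCC827, so it was 4.42-fold and 7.01-fold higher in H322. GDF15 was at 9.77 in H322 against 8.11 in PC-9 and 8.63 in HCC827, or 3.17-fold and 2.20-fold higher in H322. TIGAR ran the other way, at 8.12 in H322 against 9.78 in PC-9 and 10.91 in HCC827, or 3.16-fold and 6.90-fold lower in H322.

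AEN was lower in control PC-9 cells than in control HCC827 cells by 3.76-fold, and 4.99-fold lower in H322 than in HCC827. Set against control HCC827 cells, TP53INP1 was higher by at least 5.22-fold in PC-9 and by at least 7.84-fold in H322, and ZMAT3 by at least 2.20-fold and 2.85-fold. The HCC827 control array enters both these values and the erlotinib differences of HCC827. In order of control level, AEN and TIGAR were highest in HCC827, and TP53INP1, XPC, MDM2, ZMAT3, GDF15 and DDB2 were highest in H322. RRM2B ranged from 9.86 in PC-9 to 10.67 in HCC827 and POLH from 8.85 in PC-9 to 9.32 in HCC827. At 2-fold, 4 of the 10 genes differed between PC-9 and HCC827, 3 between H322 and PC-9, and 7 between H322 and HCC827, where 22.5%, 23.9% and 22.5% of all genes did. With 1 control array per line there is no spread against which to set these differences. Each array is bulk RNA of 1 cell line, so fewer expressing cells within a line and less RNA per cell cannot be told apart.

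Of 29 other p53 targets listed, 24 were measured. With erlotinib 0 of the 24 rose, 1 fell and 23 did not pass in limma, where 0.565% of all genes rose and 0.916% fell. An unadjusted p under 0.05 was found for 7 of the 24, where 14.4% of all genes had such a p. The gene that fell was CDKN1A, the p21 inhibitor of cyclin-dependent kinases, with a level of 11.21 with erlotinib against 12.85 in control PC-9 cells and of 8.89 with erlotinib against 10.22 in control HCC827 cells. CDKN1A fell by 1.48 ± 0.18 (limma adjusted p = 0.0182, n = 2 lines), which was 2.80-fold. With EGF in H322 it was at 12.45 against 12.39 in control cells. APAF1, which builds the apoptosome, had 0.85 ± 0.26 and PLK3, a stress kinase, -0.79 ± 0.29. They did not pass, with adjusted p in limma of 0.189 and 0.27. Of the genes that did not pass, CCNG1 came nearest, at 0.71 ± 0.15 (limma adjusted p = 0.0653, n = 2 lines). It was named after its values were seen. PLK3 was above the negative controls on 1 of the 6 arrays. The median change of the 24 genes was 0.03, against 0.00 for all genes, and 9 were higher and 8 lower in both lines, where 30.0% and 29.6% of all genes were. With EGF in H322, 0 of the 24 differed by 2-fold.

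**Figure D4:**
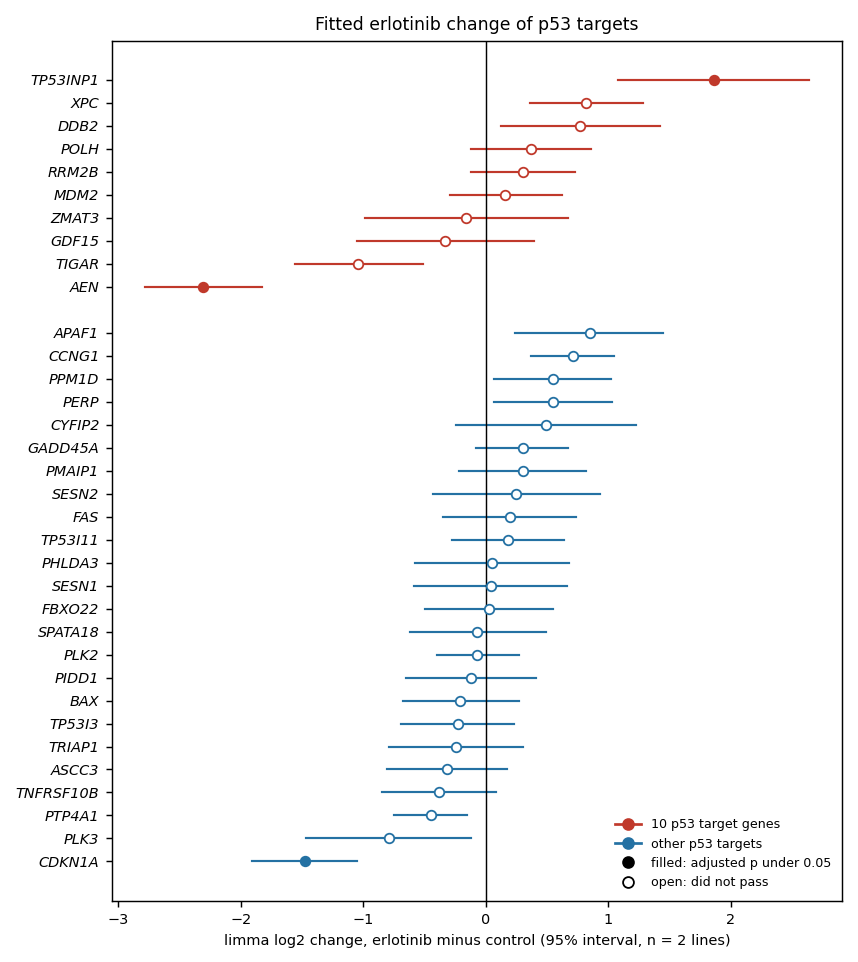
Fitted log2 change, erlotinib minus control, with 95% intervals from limma (n = 2 lines), for the 10 p53 target genes and 24 other p53 targets; filled points passed the adjusted threshold. AEN at -2.31, TP53INP1 at 1.86 and CDKN1A at -1.48 passed, and the intervals of most other genes include 0.

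Of 23 regulators of p53 listed, 19 were measured, and 0 were called by limma, where 1.48% of all genes were. An unadjusted p under 0.05 was found for 4 of the 19, beside 14.4% of all genes. The median change was 0.05. MDM4, the partner of MDM2 in restraining p53, had levels between 9.65 and 10.11 on the 6 arrays and a change of 0.05 ± 0.20 (limma adjusted p = 0.945, n = 2 lines). CREBBP, a histone acetyltransferase and co-activator of p53, had 0.75 ± 0.15 (limma adjusted p = 0.0612), and PPP1R13B and SIRT1 had 0.64 ± 0.26 and 0.56 ± 0.20. SIRT1 is a deacetylase of p53, and PPP1R13B, known as ASPP1, binds p53 and promotes its apoptotic function, and neither PC-9 signal of PPP1R13B exceeded the negative controls.

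Around the repair genes, 18 nucleotide excision repair genes other than XPC and DDB2 were measured. Limma called 0 of the 18, where it called 1.48% of all genes. An unadjusted p under 0.05 was found for 3 of the 18, beside 14.4% of all genes. ERCC5, the nuclease XPG, had 0.76 ± 0.15 (limma adjusted p = 0.056, n = 2 lines), XAB2 had 0.78 ± 0.25 and the damage-binding XPA 0.47 ± 0.26, with the HCC827 control signal of XPA not above the negative controls. The list had a median change of 0.08. Beside the same shares of all genes, limma called 0 of 11 measured genes of translesion synthesis other than POLH. An unadjusted p under 0.05 was found for 1. That was UBE2B, a ubiquitin-conjugating enzyme that works with RAD18, at 0.79 ± 0.15 (limma adjusted p = 0.0563). SHPRH and MAD2L2 had 0.33 and 0.20, and the median was 0.06.

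RRM2, the cell cycle form of the small ribonucleotide reductase subunit that RRM2B resembles, had -0.61 ± 0.17 and the large subunit RRM1 had 0.20 ± 0.15. Adjusted p in limma was 0.148 for RRM2 and 0.635 for RRM1 (n = 2 lines), so these did not pass. RRM2 was at 9.66 with erlotinib against 10.45 in control PC-9 cells and at 13.31 with erlotinib against 13.75 in control HCC827 cells. Its sign was thus opposite to that of RRM2B in both lines, although neither gene passed.

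GDF15 is also a target of the stress factors ATF4 and CHOP, and of 12 measured genes of that response 1 rose, 2 fell and 9 did not pass in limma, where 1.48% of all genes were called. NUPR1, a stress-induced chromatin protein, rose by 1.29 ± 0.21 (limma adjusted p = 0.0401, n = 2 lines). STC2 fell by 2.06 ± 0.19 and the pseudokinase gene TRIB3 by 1.27 ± 0.21 (limma adjusted p = 0.00875 and 0.0377). DDIT4, an inhibitor of mTORC1, had -1.32 ± 0.34 and did not pass (limma adjusted p = 0.12). TRIB3 was named because it passed, after its values were seen. The median of the list was 0.04. Of the 12, 6 had an unadjusted p under 0.05 in limma, beside 14.4% of all genes, and the list was chosen with earlier results known.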

How the data were processed

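Clarion S arrays were hybridised with biotinylated cRNA made from Trizol-extracted total RNA, per the labels' protocols. The deposited table holds a linear intensity per probe set, and the submitters' processing notes name Affymetrix Expression Console as the authors' software. Version, background correction, summarisation and scaling: not given in the sources used here. The array medians lay between 147.9 and 157.1.

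From these, log2(intensity + 1) was computed. Of 24351 probe sets 17709 had 1 gene symbol, and all 17709 matched RefSeq by gene identifier. For 20 genes with several probe sets the brightest was kept, leaving 17687 genes. A fold with 1 array not above the negative controls is a bound, with that array set to the limit.

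Erlotinib was tested with limma 3.58.1 in R 4.3.3 (lmFit, eBayes with trend, two-sided) on 4 arrays with the cell line as a block. The pairing comes from the cell line. With 1 residual degree of freedom and 6.58 that limma borrows from other genes, the tests lean on those genes, and so do SE and intervals. On simulated data of 17687 genes 30.2% of 2-fold and 95.8% of 4-fold changes were called and 12.3% of calls were false. EGF has 1 array per condition and no test.

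The genes, gene lists and rule for named genes (all 10, up to 3 per other list by size of change, the 5 nearest to AEN and to TP53INP1, MDM4 and CDKN1A) were chosen with earlier results of these data known. Some listed genes were not analysed here. The file was assumed to hold log2 or linear values, and it was linear.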

Additional observations from a re-analysis of the deposited data

Results flagged for a closer look

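For 3 of the p53 targets the EGFR-mutant lines had erlotinib differences of opposite sign, each from 1 pair of arrays per line, and the difference between lines was not tested. For ZMAT3 the HCC827 difference was at least 0.19 on the log2 scale and the PC-9 difference was -0.85, a gap of at least 1.04. For GDF15 the HCC827 difference was 0.21 and PC-9 showed a difference of -0.75 or below, a gap of at least 0.96. Both are bounds, with the 1 signal that was not above the negative controls set to their limit. These bounds do not allow for spread of dim signals. For MDM2 the values were 0.34 in HCC827 and -0.02 in PC-9, a difference of 0.37. After median centring the MDM2 values were 0.27 in HCC827 and 0.01 in PC-9, which have the same sign.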

How the results depend on the processing

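Limma called 262 genes past the threshold, and the count was 166 with an offset of 16, 96 with dim genes left out, 535 after median centring, 794 after quantile normalization, 1115 with dim signals raised to the limit set by the negative controls and 1 with no trend of the spread. Without the replicate block for the cell line 0 genes were called by limma, with 186 at an unadjusted p under 0.05. Of the 10 p53 targets 2 were called, against 1 with the offset of 16, with dim genes left out or with robust fitting, 3 after median centring or quantile normalization, and 4 with dim signals raised. With no trend or without the replicate block 0 of the 10 were called by limma, with 5 and 0 at an unadjusted p under 0.05. Of the other p53 targets 2 were called after median centring or quantile normalization, 5 with dim signals raised, and 0 with no trend or without the block (5 and 0 at an unadjusted p under 0.05). For the lists of p53 regulators, excision repair and translesion synthesis the count was 1 each after median centring, quantile normalization and raising of dim signals, and for ribonucleotide reductase it was 1 with dim signals raised. Of the ATF4 and CHOP targets 1 was called with dim genes left out, 5 after median centring, 6 after quantile normalization, 5 with dim signals raised, and 0 with no trend or without the block (6 and 1 at an unadjusted p under 0.05). The cause was not tested. With EGF 33 genes changed 2-fold, and 20 with dim signals raised, where AEN was still the 1 p53 target at 2-fold. Of the 9 alternative fits, those without dim genes, trend or block and the robust one cannot move a fitted change. Averaging probe sets left those of AEN and TP53INP1 as they were. Under the fits that alter the signals (offset of 16, median centring, quantile normalization, dim signals raised) no fitted change of the 10 genes reversed sign. In these AEN lay between -2.35 and -2.26 and TP53INP1 between 1.80 and 1.84. Leaving out a line leaves the other line's difference, a value with no test: AEN had -2.47 and -2.14, and TP53INP1 1.14 and, against a control signal not above the negative controls, 2.58. Signal over background limits ZMAT3, GDF15, DDB2, TP53INP1 and AEN, whose lowest signals lay below the limit of the negative controls or at most 0.32 above it.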
